A study of Mus musculus with 12 samples.

Results

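Imprinted genes are read mainly or only from the copy inherited from 1 parent, and many of them act on growth, on exit from the cell cycle and on neuronal maturation. The 10 genes described here are Dlk1, Meg3, Rian, Mirg, Igf2, Peg3, Peg10, Cdkn1c, Ndn and Grb10, out of 55359 genes in the count files. They were chosen by symbol because the Dlk1 level was higher in Ctrl PMBSF than in Ctrl ALBSF, to ask whether its neighbour Meg3 and other imprinted genes followed. The levels of Dlk1 in those libraries therefore chose the set and are described without a test. The stated reason names no value of the other 9 genes. All 10 were nevertheless named with earlier results of these data known, so the set was not chosen blind to them. All 10 passed the filter on low counts, which left 17501 genes.

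The libraries were bulk poly-A RNA from the ventroposterior medial nucleus (VPM) of the mouse thalamus at postnatal day 0. In this nucleus the PMBSF territory receives whisker pad input and the ALBSF territory receives upper lip input. There were 4 libraries of ALBSF from embWPC pups, 4 of PMBSF from control pups (Ctrl PMBSF) and 4 of ALBSF from control pups (Ctrl ALBSF), and each library pooled 5 brains. What embWPC stands for is not written out in the labels and is not guessed at, and strain and sex are not given in the sources used here. A pool averages its pups, and nothing says that the pools were separate litters, so p-values measure the spread between these pools. Library totals were 31712820 to 33702453 counts in embWPC ALBSF, 31921767 to 34512840 in Ctrl PMBSF and 28457046 to 31850727 in Ctrl ALBSF. The summed level of 15 thalamic relay markers was 3016 to 3408 counts per 1000000 counts of a library (CPM) in embWPC ALBSF, 2704 to 3058 in Ctrl PMBSF and 3049 to 3527 in Ctrl ALBSF, and none of these markers was at 0 in every library of a group. Between the control territories edgeR called 6 of the 15 (adjusted p under 0.05), beside 1.62% of all genes, with Rora (log2 0.39) and Zic1 (0.50) higher and Rorb (-1.17), Foxp2 (-0.88), Tcf7l2 (-0.76) and Cdh6 (-0.67) lower in Ctrl PMBSF than in Ctrl ALBSF. For embWPC ALBSF edgeR called 0 of the 15 against either control group, beside 0.0629% of all genes against Ctrl ALBSF and 0.00571% against Ctrl PMBSF. At an unadjusted p under 0.05 were 5 against Ctrl ALBSF, beside 9.22% of all genes, and 4 against Ctrl PMBSF, beside 9.47%. DESeq2 called 2 in each, beside 1.1% of all genes against Ctrl ALBSF and 0.467% against Ctrl PMBSF. With limma voom 1 was called against Ctrl ALBSF, beside 0.446% of all genes, and 0 against Ctrl PMBSF.

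Dlk1, Meg3, Rian and Mirg lie in 1 imprinted domain on chromosome 12. Dlk1 encodes a membrane protein with EGF repeats that resembles Notch ligands but lacks their DSL domain, and it is expressed from the paternal copy. Meg3, Rian and Mirg are noncoding RNAs expressed from the maternal copy, and the last 2 host snoRNAs or microRNAs. In GRCm39, Dlk1 (ENSMUSG00000040856) spans chr12:109418749-109429262 and Meg3 (ENSMUSG00000021268) spans chr12:109506877-109538165, both on the plus strand. Rian (ENSMUSG00000097451) follows at chr12:109570242-109628150 and Mirg (ENSMUSG00000097391) at chr12:109696198-109715898. The start of Meg3 lies 88.13 kb downstream of that of Dlk1, the start of Rian 151.5 kb and the start of Mirg 277.4 kb.

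The promoters of Dlk1 and Meg3 are printed because these neighbours on 1 strand are the pair whose levels are set side by side. Each stretch holds the 250 bases before a RefSeq transcript start, taken from a RefSeq table of GRCm38.p6 and placed on GRCm39 by exact match. Capitals mark matches to 3 motifs searched on both strands, the TATA box as TATAAA, the full cAMP response element as TGACGTCA and the GC box as GGGCGG.
Dlk1, GRCm39 chr12:109418499-109418748, plus strand: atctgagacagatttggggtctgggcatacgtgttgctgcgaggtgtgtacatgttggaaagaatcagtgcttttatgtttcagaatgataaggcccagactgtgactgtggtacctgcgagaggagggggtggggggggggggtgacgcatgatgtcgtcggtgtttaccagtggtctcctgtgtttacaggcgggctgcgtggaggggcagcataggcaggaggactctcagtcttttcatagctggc
Meg3, GRCm39 chr12:109506629-109506878, plus strand: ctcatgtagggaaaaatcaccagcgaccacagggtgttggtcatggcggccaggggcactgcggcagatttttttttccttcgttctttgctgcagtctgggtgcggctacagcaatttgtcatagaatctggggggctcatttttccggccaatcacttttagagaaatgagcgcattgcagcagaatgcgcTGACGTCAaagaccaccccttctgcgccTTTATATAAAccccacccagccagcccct
The Meg3 window held TGACGTCA once and TATAAA once on each strand, overlapping in the capital run TTTATATAAA, and had 10 CpG. The Dlk1 window held none of the 3 motifs and had 8 CpG. Over 32851 RefSeq promoter windows the median was 6 CpG, and the same search found TATAAA in 12.4%, TGACGTCA in 1.55% and GGGCGG in 32.7%. These matches describe the letters only.

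From the start of Meg3 to the end of Mirg, RefSeq (GRCm38.p6) places 57 microRNA hairpins with 112 mature sequences, of which 1 hairpin lies in Meg3, 3 in Rian and 10 in Mirg. Among the mature sequences 9 seeds, which are bases 2 to 8 and pair with targets, occur more than once. Both arms of miR-379 share their seed with another microRNA of the cluster, as the capitals show.
mmu-miR-379-3p: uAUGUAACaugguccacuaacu
mmu-miR-411-3p: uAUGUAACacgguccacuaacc
mmu-miR-379-5p: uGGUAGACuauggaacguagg
mmu-miR-1193-5p: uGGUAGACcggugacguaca
Poly-A counts do not measure mature microRNAs, so only the longer RNAs Meg3, Rian and Mirg were measured here.

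Dlk1 and Cdkn1c, an inhibitor of cyclin-dependent kinases (p57), were higher in Ctrl PMBSF than in Ctrl ALBSF in each of the 4 libraries, and Meg3 was not. Among the 9 genes other than Dlk1, Cdkn1c rose 2.21-fold and passed the test across all genes (edgeR's quasi-likelihood test with Benjamini-Hochberg adjustment, called at an adjusted p under 0.05). Meg3, Rian, Mirg, Igf2, Peg3, Peg10, Ndn and Grb10 did not pass, with folds of Ctrl PMBSF over Ctrl ALBSF between 0.79 and 1.59. This 1 call of 9 stands beside 284 calls among all 17501 genes, 1.62%. The libraries of the control territories did not overlap for Dlk1 and Cdkn1c, 2 of the 10, beside 8.28% of all genes. As Dlk1 was picked there, nothing is read from either count. In embWPC ALBSF, Dlk1 and Cdkn1c had means between those of the control territories, and 0 of the 10 genes passed the test against either of them.

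**Figure D1:**
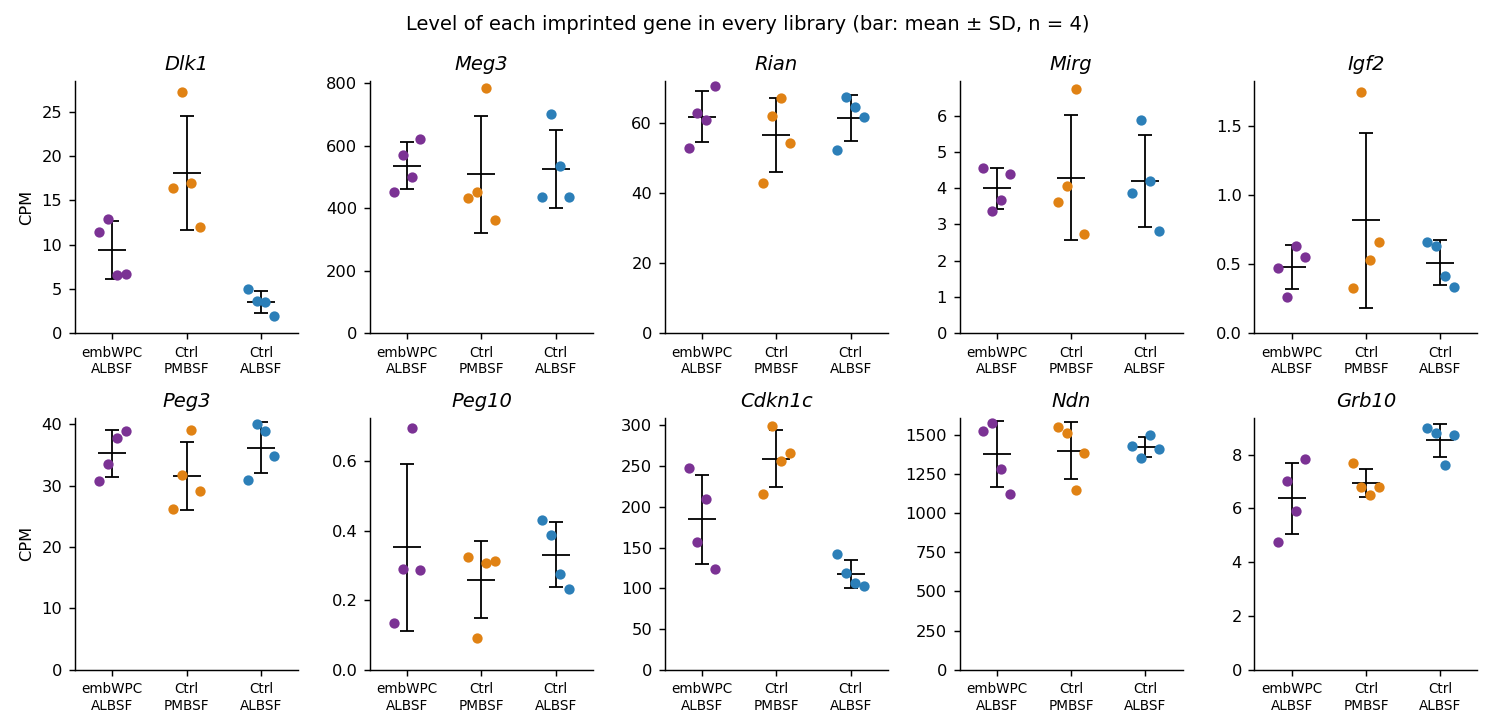
Level of each of the 10 imprinted genes in CPM (vertical axis, from 0, scaled for each gene) in embWPC ALBSF, Ctrl PMBSF and Ctrl ALBSF, with 1 point per library and the mean ± SD as bars (n = 4). Dlk1 and Cdkn1c separate the 2 control groups, and the points of Meg3, Rian, Mirg, Peg3 and Ndn overlap in all 3 groups.

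Dlk1 had 11.4, 12.9, 6.55 and 6.71 CPM in embWPC ALBSF 1 to 4. It had 16.4, 27.2, 16.9 and 11.96 CPM in Ctrl PMBSF 1 to 4, and 4.96, 3.59, 3.49 and 1.95 CPM in Ctrl ALBSF 1 to 4. The lowest Ctrl PMBSF library lay above every Ctrl ALBSF library, and so did the lowest embWPC ALBSF library. Between embWPC ALBSF and Ctrl PMBSF the ranges overlapped, because embWPC ALBSF 2 lay just above Ctrl PMBSF 4. The means were 9.40 ± 3.25 CPM in embWPC ALBSF, 18.1 ± 6.47 in Ctrl PMBSF and 3.50 ± 1.23 in Ctrl ALBSF (SD, n = 4 each). Counts of Dlk1 ran from 59 to 888 per library. In bulk tissue, fewer cells of a type and less RNA per cell cannot be told apart.

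The fitted fold of Dlk1 in Ctrl PMBSF over Ctrl ALBSF was 5.18, or log2 2.37 ± 0.31 (SE). This is the difference that chose the gene, so no test is given. In embWPC ALBSF over Ctrl ALBSF the fold was 2.68, or log2 1.42 ± 0.31, with a 95% interval from 0.76 to 2.08 and an adjusted p of 0.103 (edgeR). DESeq2 gave an adjusted p of 0.000606 for the same difference (log2 1.43), so its call depends on the tool. In embWPC ALBSF over Ctrl PMBSF the log2 difference was -0.95 ± 0.29, at an edgeR adjusted p of 0.347. Both comparisons of embWPC ALBSF use control libraries in which Dlk1 was picked, so neither is independent of that choice.

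Meg3, the abundant noncoding RNA of the domain, had 452, 572, 499 and 622 CPM in embWPC ALBSF. It had 432, 452, 784 and 363 CPM in Ctrl PMBSF, and 435, 700, 536 and 435 CPM in Ctrl ALBSF. The groups overlapped, and the highest libraries were Ctrl PMBSF 3 and Ctrl ALBSF 2, one in each territory. The log2 difference of Ctrl PMBSF from Ctrl ALBSF was -0.05 ± 0.21, with an interval from -0.51 to 0.40 (adjusted p = 0.961, edgeR). In embWPC ALBSF over Ctrl ALBSF Meg3 differed by 0.03 ± 0.21, with an interval from -0.43 to 0.48 (adjusted p = 0.98, edgeR).

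Rian, the host of box C/D snoRNAs, had 53.0 to 70.6 CPM in embWPC ALBSF (median 61.8), 42.9 to 67.2 in Ctrl PMBSF (median 58.1) and 52.3 to 67.5 in Ctrl ALBSF (median 63.2). Its log2 difference of Ctrl PMBSF from Ctrl ALBSF was -0.12 ± 0.13, with an interval from -0.39 to 0.15 (adjusted p = 0.786, edgeR). Mirg, a host of microRNAs, had 4.56, 3.36, 3.67 and 4.38 CPM in embWPC ALBSF. It had 3.62, 4.05, 6.75 and 2.73 CPM in Ctrl PMBSF, and 3.87, 5.87, 4.18 and 2.81 CPM in Ctrl ALBSF. As for Meg3, the highest Mirg libraries were Ctrl PMBSF 3 and Ctrl ALBSF 2, and the groups overlapped. The log2 difference of Mirg between the control territories was 0.04 ± 0.26 (interval -0.52 to 0.59, adjusted p = 0.978, edgeR). Rian differed by 0.01 ± 0.13 and Mirg by -0.07 ± 0.26 in embWPC ALBSF over Ctrl ALBSF, and neither passed.

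The rest of the domain was sparse. Within 1000 kb of the start of Dlk1 the files held 142 genes, 95 of them microRNAs or snoRNAs, and 22 genes passed the count filter. Of the 21 other than Dlk1, edgeR, DESeq2 and limma voom each called 0 in either comparison with Ctrl ALBSF. In each, 2 had an unadjusted p under 0.05, beside 11.8% of all genes for Ctrl PMBSF and 9.22% for embWPC ALBSF. Over all genes edgeR called 1.62%, DESeq2 3.05% and limma voom 2.63% in Ctrl PMBSF against Ctrl ALBSF. In embWPC ALBSF against Ctrl ALBSF they called 0.0629%, 1.1% and 0.446%. At such shares, 0 of 21 says little about the domain. The lowest edgeR adjusted p in both belonged to Gm6988, a processed pseudogene 863.7 kb downstream (0.144 for Ctrl PMBSF and 0.304 for embWPC ALBSF). Rtl1, a paternally expressed gene derived from a retrotransposon, averaged 1.07 ± 0.22 CPM in embWPC ALBSF, 0.93 ± 0.57 in Ctrl PMBSF and 1.10 ± 0.25 in Ctrl ALBSF (SD, n = 4 each). Its log2 difference between the control territories was -0.24 ± 0.36 (adjusted p = 0.867, edgeR). Rtl1 overlaps Rian on the other strand, and the strand setting of the counting is not stated, so their reads cannot be told apart. Begain, the nearest tested gene upstream at -384.5 kb, averaged 22.4 ± 1.84 CPM in embWPC ALBSF, 20.1 ± 1.83 in Ctrl PMBSF and 20.8 ± 1.13 in Ctrl ALBSF. Dio3, the paternally expressed deiodinase gene at the far end of the domain, missed the filter with means of 0.0575 CPM in embWPC ALBSF, 0.114 in Ctrl PMBSF and 0.109 in Ctrl ALBSF.

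**Figure D2:**
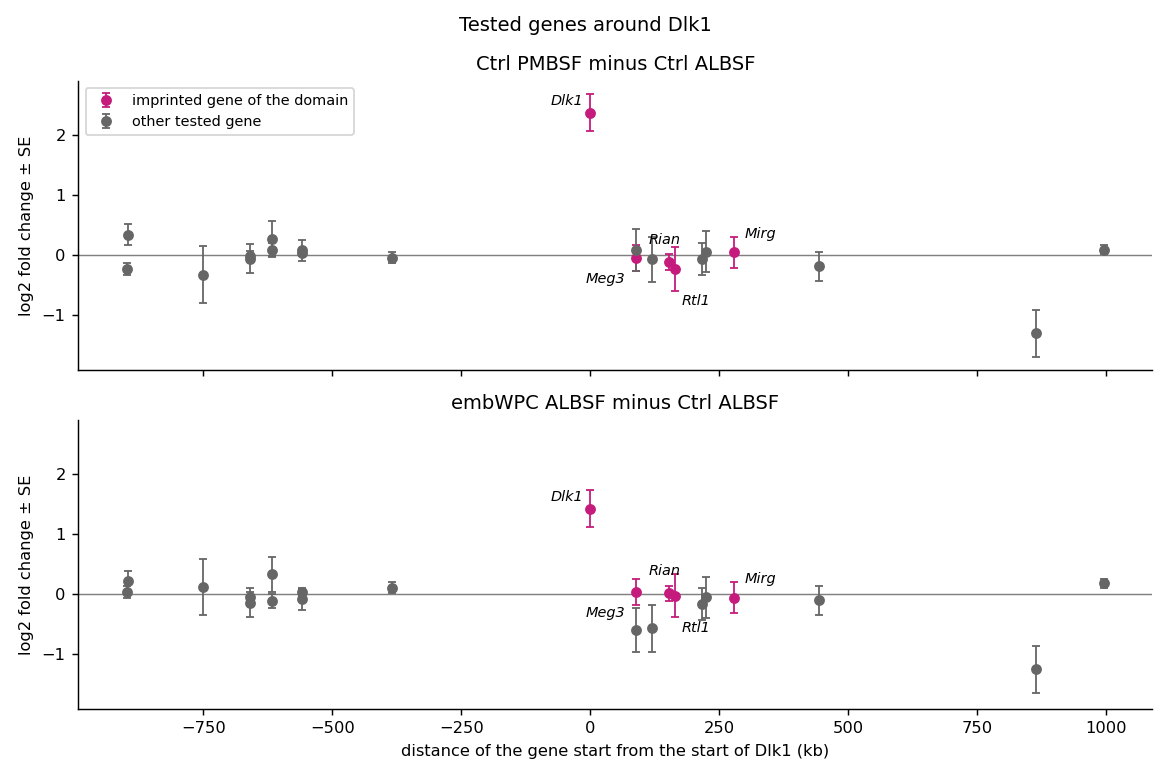
Log2 fold change (vertical axis, bars are SE of the edgeR fit) of the 22 tested genes around Dlk1 against the distance of their start from the start of Dlk1 in kb, for Ctrl PMBSF minus Ctrl ALBSF (top) and embWPC ALBSF minus Ctrl ALBSF (bottom). Dlk1 stands at 2.37 and 1.42, while Meg3, Rian, Rtl1 and Mirg lie between -0.24 and 0.04.

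Cdkn1c (ENSMUSG00000037664, chr7:143012069-143014806, minus strand) is expressed from the maternal copy and acts at exit from the cell cycle. It had 248, 157, 210 and 124 CPM in embWPC ALBSF. It had 215, 299, 256 and 266 CPM in Ctrl PMBSF, and 142, 118, 106 and 103 CPM in Ctrl ALBSF. The control territories did not overlap. embWPC ALBSF 1 and 3 lay in or next to the Ctrl PMBSF range, while embWPC ALBSF 4 lay within the Ctrl ALBSF range and embWPC ALBSF 2 above it. The means were 184 ± 55.0 CPM in embWPC ALBSF, 259 ± 34.7 in Ctrl PMBSF and 117 ± 17.4 in Ctrl ALBSF (SD, n = 4 each).

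Between the control territories Cdkn1c differed by log2 1.14 ± 0.18, with an interval from 0.76 to 1.53 and an adjusted p of 0.0042 (edgeR). With a covariate for the average level of meningeal markers in a library, the difference was 0.94 and the call was lost (adjusted p = 0.0705). The log2 difference of embWPC ALBSF from Ctrl ALBSF was 0.65 ± 0.18, with an adjusted p of 0.216 by edgeR and 0.0337 by DESeq2. Against Ctrl PMBSF it was -0.49 ± 0.18 (adjusted p = 0.434, edgeR). The 5 other tested CDK inhibitors were called in no comparison by edgeR, DESeq2 or limma voom. Over all genes these tools called at most 3.05% in any comparison. The nearest relatives of Cdkn1c gave 0.27 ± 0.11 for Cdkn1b (p27, adjusted p = 0.31) and -0.14 ± 0.10 for Cdkn1a (p21, adjusted p = 0.653) in Ctrl PMBSF against Ctrl ALBSF.

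Igf2 (ENSMUSG00000048583, chr7:142204503-142220694, minus strand), a growth factor expressed from the paternal copy in most tissues, was close to the limit of these counts, with 8 to 57 counts per library. It had 0.47, 0.258, 0.629 and 0.55 CPM in embWPC ALBSF. It had 0.324, 1.75, 0.532 and 0.659 CPM in Ctrl PMBSF, and 0.662, 0.633, 0.415 and 0.331 CPM in Ctrl ALBSF. Ctrl PMBSF 2 stood above all other libraries, and the other 3 Ctrl PMBSF libraries lay within the Ctrl ALBSF range or at its edge. The log2 difference between the control territories was 0.67 ± 0.47 (adjusted p = 0.647, edgeR), and without Ctrl PMBSF 2 it was -0.02. In embWPC ALBSF over Ctrl ALBSF it was -0.09 ± 0.49, with an interval from -1.14 to 0.96 (adjusted p = 0.967, edgeR).

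Among the paternally expressed genes of the 10, Ndn (ENSMUSG00000033585, chr7:61995473-62000010, plus strand), which encodes the MAGE family protein necdin of postmitotic neurons, was the most abundant per kb of exon. It had 1524, 1574, 1281 and 1125 CPM in embWPC ALBSF. It had 1549, 1515, 1151 and 1382 CPM in Ctrl PMBSF, and 1432, 1351, 1501 and 1407 CPM in Ctrl ALBSF. The groups overlapped, and the log2 difference between the control territories was -0.02 ± 0.12 with an interval from -0.29 to 0.24 (adjusted p = 0.97, edgeR). The difference of embWPC ALBSF from Ctrl ALBSF was -0.05 ± 0.12, with an interval from -0.31 to 0.21 (adjusted p = 0.923, edgeR).

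Peg3 (ENSMUSG00000002265, chr7:6706882-6733468, minus strand), a zinc-finger protein, had 30.7 to 38.96 CPM in embWPC ALBSF (median 35.6), 26.2 to 39.1 in Ctrl PMBSF (median 30.4) and 30.9 to 40.0 in Ctrl ALBSF (median 36.9). It differed between the control territories by log2 -0.20 ± 0.12 (interval -0.46 to 0.06, adjusted p = 0.588, edgeR). Peg10 (ENSMUSG00000092035, chr6:4747306-4760517, plus strand), a gene of retrotransposon origin best known from placenta, had only 3 to 21 counts per library. Its level was 0.134 to 0.695 CPM in embWPC ALBSF, 0.0921 to 0.324 in Ctrl PMBSF and 0.231 to 0.43 in Ctrl ALBSF, and no comparison passed. At that depth, the interval of its log2 difference between the control territories ran from -1.40 to 0.72. Peg10 adjoins the paternally expressed Sgce on the other strand, so counts near their starts are uncertain.

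Grb10 (ENSMUSG00000020176, chr11:11880498-11988683, minus strand) encodes an adaptor that binds insulin and IGF receptors, and is read from the maternal copy in most tissues and from the paternal copy in neurons. It had 4.76, 7.01, 5.89 and 7.83 CPM in embWPC ALBSF. It had 7.70, 6.81, 6.49 and 6.81 CPM in Ctrl PMBSF, and 8.998, 8.79, 7.61 and 8.73 CPM in Ctrl ALBSF. Ctrl ALBSF held the highest 3 libraries, and in each comparison with it 1 library overlapped. The log2 difference was -0.29 ± 0.14 for Ctrl PMBSF (adjusted p = 0.422) and -0.42 ± 0.14 for embWPC ALBSF (adjusted p = 0.347), each against Ctrl ALBSF by edgeR, so neither passed.

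**Figure D3:**
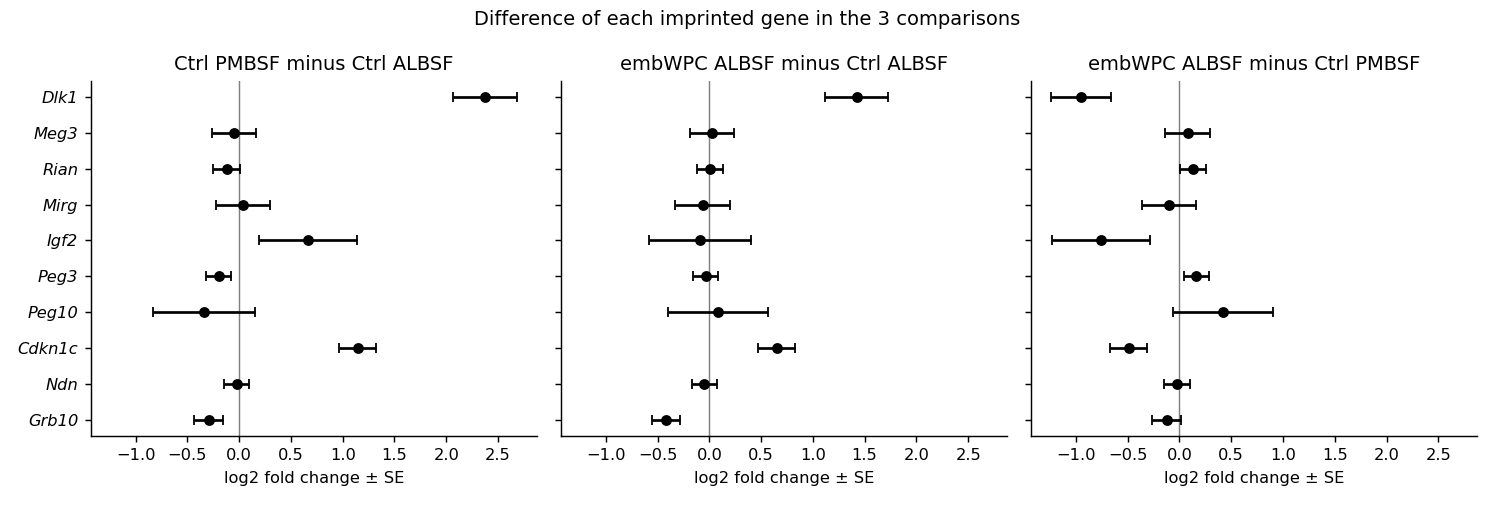
Log2 fold change (horizontal axis, bars are SE of the edgeR fit) of the 10 imprinted genes in each of the 3 comparisons, with 4 libraries per group. Dlk1 and Cdkn1c lie right of 0 at 2.37 and 1.14 in Ctrl PMBSF minus Ctrl ALBSF and at 1.42 and 0.65 in embWPC ALBSF minus Ctrl ALBSF, and left of 0 at -0.95 and -0.49 in embWPC ALBSF minus Ctrl PMBSF.

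In embWPC ALBSF against Ctrl ALBSF, edgeR called 0 of the 10 genes, where it called 11 of all genes, 0.0629%. At an unadjusted p under 0.05 there were 3 of the 10 (Dlk1, Cdkn1c and Grb10), beside 9.22% of all genes. DESeq2 called 2 (Dlk1 and Cdkn1c), beside 1.1% of all genes by the same tool, and limma voom called 0, beside 0.446%. The libraries did not overlap for 1 of the 10 (Dlk1), beside 5.74% of all genes. When embWPC ALBSF was set against Ctrl PMBSF, edgeR, DESeq2 and limma voom each called 0 of the 10, where edgeR and limma voom called 1 of all genes each, 0.00571%, and DESeq2 called 0.467%. At an unadjusted p under 0.05 were 2 of the 10 (Dlk1 and Cdkn1c), beside 9.47% of all genes. The libraries overlapped for each of the 10, where 4.73% of all genes did not overlap. The comparisons share their libraries in pairs, so these counts are not separate evidence. Dlk1 was picked by its level in the control libraries used here, so its part in these counts is not independent of that choice.

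Set on a scale per kb of exon, the order of the mean levels was Ndn, Cdkn1c, Meg3 and then the others. The exon length joined all annotated transcripts of a gene, so a gene with many transcripts can be placed too low. Meg3 was divided by 19306 bases and Cdkn1c by 2155. By CPM alone Meg3 (means of 508 to 536) stood above Cdkn1c (117 to 259). Ndn had 364 CPM per kb in embWPC ALBSF, 370.5 in Ctrl PMBSF and 377 in Ctrl ALBSF. Cdkn1c had 85.6 CPM per kb in embWPC ALBSF, 120.3 in Ctrl PMBSF and 54.5 in Ctrl ALBSF. Meg3 had 27.8 CPM per kb in embWPC ALBSF, 26.3 in Ctrl PMBSF and 27.3 in Ctrl ALBSF. Dlk1 changed its place between groups: with 3.01 CPM per kb in Ctrl PMBSF it stood above Peg3 (2.31) and Rian (1.77), and with 0.58 in Ctrl ALBSF it stood below Peg3 (2.65), Rian (1.92) and Grb10 (0.83). In embWPC ALBSF it had 1.56 CPM per kb, below Peg3 (2.58) and Rian (1.93). Mirg, Igf2 and Peg10 had less than Dlk1 in every group.

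A wider list of 50 imprinted genes outside the 10 was counted, of which 42 passed the filter. In Ctrl PMBSF against Ctrl ALBSF edgeR called 0 of the 42, beside 1.62% of all genes. At an unadjusted p under 0.05 were 5, beside 11.8% of all genes. DESeq2 and limma voom called 1 each (Nap1l5), beside 3.05% and 2.63% of all genes. The median log2 difference was -0.01, beside 0.00 over all genes, and 5 of the 42 did not overlap between groups, beside 8.28% of all genes. With the replicate number as a block, which pairs the control libraries, 2 genes passed, beside 5.04% of all genes in that fit. These were Nap1l5, a relative of nucleosome assembly proteins, at 0.41 (adjusted p = 0.0017, against 0.0694 without the block) and Mest, a hydrolase-like protein of mesoderm, at -0.52 (adjusted p = 0.00602, against 0.198 without the block).

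Nap1l5 averaged 93.8 ± 11.3 CPM in embWPC ALBSF, 121 ± 13.1 in Ctrl PMBSF and 91.0 ± 9.76 in Ctrl ALBSF. Mest had 180.2, 133, 182 and 125 CPM in embWPC ALBSF. It had 116, 196, 168 and 173 CPM in Ctrl PMBSF, and 185, 241, 291 and 217 CPM in Ctrl ALBSF. Its libraries were lower in embWPC ALBSF than in Ctrl ALBSF without overlap (log2 -0.59 ± 0.17, adjusted p = 0.262, edgeR), while Ctrl PMBSF 2 overlapped Ctrl ALBSF.

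For the same 42 genes in embWPC ALBSF against Ctrl ALBSF, edgeR and limma voom called 0, beside 0.0629% and 0.446% of all genes. The libraries did not overlap for 3 of the 42 (Mest, Gnas and Zdbf2), beside 5.74% of all genes. At an unadjusted p under 0.05 were 4, beside 9.22% of all genes. DESeq2 called 2, Gnas and Zdbf2, beside 1.1% of all genes. Gnas, the stimulatory G protein alpha subunit in an imprinted locus whose overlapping transcripts make its counts uncertain, had 34.6, 37.4, 50.3 and 27.8 CPM in embWPC ALBSF. It had 9.81, 23.4, 16.01 and 30.6 CPM in Ctrl PMBSF, and 14.5, 14.7, 21.1 and 14.9 CPM in Ctrl ALBSF. All 4 embWPC ALBSF libraries exceeded those of Ctrl ALBSF, with a log2 difference of 1.20 ± 0.27 and adjusted p values of 0.113 by edgeR and 0.0259 by DESeq2. Zdbf2, a paternally expressed zinc-finger gene, had 7.88, 7.27, 7.71 and 8.18 CPM in embWPC ALBSF. It had 12.02, 9.24, 11.3 and 9.80 CPM in Ctrl PMBSF, and 11.1, 10.3, 10.7 and 10.9 CPM in Ctrl ALBSF. Its embWPC ALBSF libraries were all below those of both control groups, with log2 differences of -0.47 ± 0.10 from Ctrl ALBSF (adjusted p = 0.101 by edgeR and 0.00713 by DESeq2) and -0.45 ± 0.10 from Ctrl PMBSF (adjusted p = 0.24 by edgeR and 0.0235 by DESeq2). Against Ctrl PMBSF, edgeR and limma voom called 0 of the 42 and DESeq2 called Zdbf2, beside 0.467% of all genes by DESeq2. At an unadjusted p under 0.05 were 6, beside 9.47% of all genes. The libraries did not overlap there for 5 of the 42, Zdbf2 included, beside 4.73% of all genes.

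The pathways in which these genes act were counted as lists. Of 29 tested Notch pathway genes, edgeR called 1 higher and 0 lower in Ctrl PMBSF than in Ctrl ALBSF, beside 0.811% of all genes in each direction. The median log2 difference was -0.06. DESeq2 called 2, beside 3.05% of all genes, namely the same gene and Lfng. Lfng was lower in Ctrl PMBSF (log2 -0.53, adjusted p = 0.0323 by DESeq2 and 0.118 by edgeR). The gene that rose was Maml3, a coactivator of the Notch transcription complex. It had 2.01, 2.49, 2.88 and 2.46 CPM in embWPC ALBSF. It had 3.13, 4.27, 4.25 and 3.27 CPM in Ctrl PMBSF, and 1.62, 1.62, 2.18 and 2.28 CPM in Ctrl ALBSF. The control territories did not overlap, and the log2 difference was 0.95 ± 0.19 (adjusted p = 0.0169, edgeR), which with the meningeal covariate became 0.73 (adjusted p = 0.153). Dlk2, the closest relative of Dlk1, differed by -0.05 ± 0.12 (adjusted p = 0.927) and Notch1 by -0.34 ± 0.18 (adjusted p = 0.481) by edgeR. In embWPC ALBSF against Ctrl ALBSF, edgeR, DESeq2 and limma voom called 0 of the 29, beside 0.0629%, 1.1% and 0.446% of all genes. At an unadjusted p under 0.05 was 1, beside 9.22% of all genes.

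Of 20 tested genes of IGF signalling, Igf2 and Grb10 included, edgeR called 0 in Ctrl PMBSF against Ctrl ALBSF, with 9 at an unadjusted p under 0.05, beside 11.8% of all genes. DESeq2 called 1, limma voom 2 and the fit with the replicate number as a block 5, beside 3.05%, 2.63% and 5.04% of all genes. The median log2 difference was -0.12. The smallest p belonged to Irs2, a docking protein of insulin and IGF receptors, with 97.7 ± 7.57 CPM in embWPC ALBSF, 81.7 ± 7.32 in Ctrl PMBSF and 104 ± 9.38 in Ctrl ALBSF (log2 difference of the control territories -0.35 ± 0.09, adjusted p = 0.0627, edgeR). Igfbp4, a binding protein for IGFs, averaged 334 ± 84.5 CPM in embWPC ALBSF, 333 ± 43.2 in Ctrl PMBSF and 241 ± 14.3 in Ctrl ALBSF. In embWPC ALBSF against Ctrl ALBSF, edgeR, DESeq2 and limma voom called 0 of the 20, beside 0.0629%, 1.1% and 0.446% of all genes. At an unadjusted p under 0.05 were 4, beside 9.22% of all genes.

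**Figure D4:**
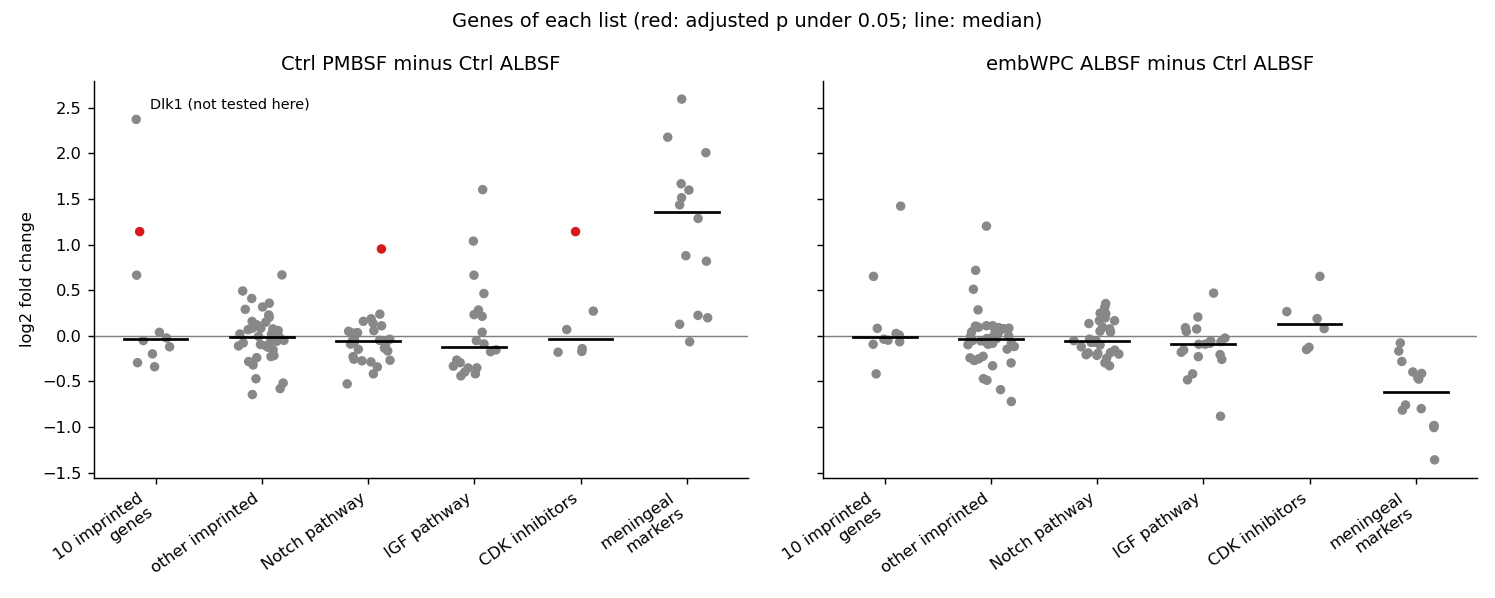
Log2 fold change (vertical axis) of every tested gene of 6 lists, 1 point per gene with the list median as a line, for Ctrl PMBSF minus Ctrl ALBSF (left) and embWPC ALBSF minus Ctrl ALBSF (right). Points in red passed an edgeR adjusted p of 0.05, namely Cdkn1c, which is in 2 of the lists, and Maml3. Dlk1 was picked for the difference on the left, so it is given no test there and is drawn grey whatever its p. The meningeal markers have medians of 1.36 and -0.62.

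Markers of other tissues were set beside these genes, and not all of them moved in the direction of Dlk1 and Cdkn1c. Between the control territories the median log2 difference was -0.14 for mural, -0.26 for endothelial and -0.31 for choroid plexus markers. It was -0.02 for prethalamic, -0.36 for erythroid and -0.13 for progenitor markers, and edgeR called 0 in each of these lists. Sox2 of the 10 progenitor markers was called by DESeq2 (0.37), limma voom (0.37) and the fit with the replicate number as a block (0.36). That block fit also called Sp9 of 12 prethalamic (2.69), Rgs5 (-0.44) and Cspg4 (-0.55) of 8 mural and Hbb-bt (-0.41) of 6 erythroid markers. None of these fits called an endothelial or choroid plexus marker. Over all genes they called 3.05%, 2.63% and 5.04%. For meningeal fibroblasts 14 markers were tested, and the level of 13 was higher in Ctrl PMBSF than in Ctrl ALBSF, with a median log2 difference of 1.36. None of the 14 was called by edgeR, beside 1.62% of all genes, and 9 had an unadjusted p under 0.05, beside 11.8%. DESeq2 and limma voom called 2 each, beside 3.05% and 2.63% of all genes. With the replicate number as a block, 6 of the 14 were called, beside 5.04% of all genes in that fit. These were Lum, Islr, Slc22a6, Aldh1a2, Nupr1 and Ogn, all higher in Ctrl PMBSF. In embWPC ALBSF against Ctrl ALBSF all 14 had a lower value, with a median of -0.62 and 0 called by edgeR, DESeq2 or limma voom. Over all genes these called 0.0629%, 1.1% and 0.446%. At an unadjusted p under 0.05 was 1, beside 9.22% of all genes. Values were also lower there for 6 of 6 erythroid (median -0.71), 4 of 4 choroid plexus (-1.3) and 11 of 12 prethalamic markers (-0.54). So were those of 6 of 8 mural (-0.17), 7 of 12 endothelial (-0.07) and 8 of 10 progenitor markers (-0.14). Of the erythroid markers 4 had an unadjusted p under 0.05, and DESeq2 called Hbb-bs. Against Ctrl PMBSF all 14 meningeal markers had a lower value in embWPC ALBSF as well (median -1.94). There 0 were called by edgeR or limma voom and 8 by DESeq2, beside 0.467% of all genes by DESeq2. At an unadjusted p under 0.05 were 11, beside 9.47% of all genes. The summed level of all 17 markers was 33.3 to 83.5 CPM in embWPC ALBSF, 70.7 to 142.5 in Ctrl PMBSF and 53.1 to 90.8 in Ctrl ALBSF, and none was at 0 in every library of a group.

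Ctrl PMBSF 2 had the highest meningeal sum, the highest Igf2 and the highest Dlk1. Its Col3a1, a collagen of fibroblasts, was 23.7 CPM against 2.67 to 3.77 CPM in Ctrl ALBSF. Other libraries did not share this order. Ctrl PMBSF 1 had a meningeal sum of 70.7 CPM, within the Ctrl ALBSF range, and 16.4 CPM of Dlk1. The mean log2 CPM of the tested meningeal markers was 0.16 to 0.62 in embWPC ALBSF and 0.80 to 1.23 in Ctrl ALBSF. Yet Dlk1 was higher in every embWPC ALBSF library than in any Ctrl ALBSF library. With the meningeal covariate, the log2 difference of Dlk1 was 1.97 in Ctrl PMBSF and 1.65 in embWPC ALBSF against Ctrl ALBSF. That of Igf2 was 0.67 in Ctrl PMBSF against Ctrl ALBSF without the covariate and -0.45 with it.

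Of 6 tested hypothalamic markers, 3 had a higher and 3 a lower level in Ctrl PMBSF than in Ctrl ALBSF (median log2 0.01), and 5 of the 6 were lower in embWPC ALBSF than in Ctrl ALBSF (median -0.52). Of 3 tested habenular markers, 2 were higher and Gng8 (-0.32) was lower in Ctrl PMBSF than in Ctrl ALBSF, and 2 were lower in embWPC ALBSF than in Ctrl ALBSF. Gal and Nhlh2 are given because they had the smallest p of their lists, while other hypothalamic members had lower values, namely Trh (-0.77), Nkx2-1 (-0.40) and Agrp (-0.14) between the control territories, none of which was called by edgeR. Gal, a neuropeptide of hypothalamic and other neurons, had 85.9, 37.7, 88.6 and 32.7 CPM in embWPC ALBSF. It had 100.6, 102.0, 97.6 and 99.4 CPM in Ctrl PMBSF, and 52.2, 47.4, 51.5 and 40.8 CPM in Ctrl ALBSF. Gal, like Cdkn1c, was higher in embWPC ALBSF 1 and 3 than in 2 and 4. The summed hypothalamic markers, mostly Gal, were 37.8 to 91.3 CPM in embWPC ALBSF, 102.0 to 140.1 in Ctrl PMBSF and 47.5 to 59.3 in Ctrl ALBSF. Gal differed by log2 1.06 ± 0.25 between the control territories (adjusted p = 0.0539 by edgeR, 0.0176 by DESeq2, 0.0199 by limma voom and 7.351e-06 with the replicate number as a block), and the 5 other tested hypothalamic markers were called by none of these.

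Nhlh2, a transcription factor listed as a habenula marker, had 78.9, 57.5, 86.3 and 51.6 CPM in embWPC ALBSF. It had 80.6, 106.5, 83.0 and 116.4 CPM in Ctrl PMBSF, and 40.6, 43.7, 39.4 and 62.6 CPM in Ctrl ALBSF. It too was higher in embWPC ALBSF 1 and 3 than in 2 and 4, and rose by log2 1.05 ± 0.18 in Ctrl PMBSF over Ctrl ALBSF (adjusted p = 0.00821, edgeR). With the meningeal covariate this was 0.85 (adjusted p = 0.101). The habenula marker Gpr151 was at 0 in every Ctrl ALBSF library. The part that meningeal, hypothalamic or habenular tissue had in the differences of Dlk1 and Cdkn1c was not tested, apart from the meningeal covariate given above.

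**Figure D5:**
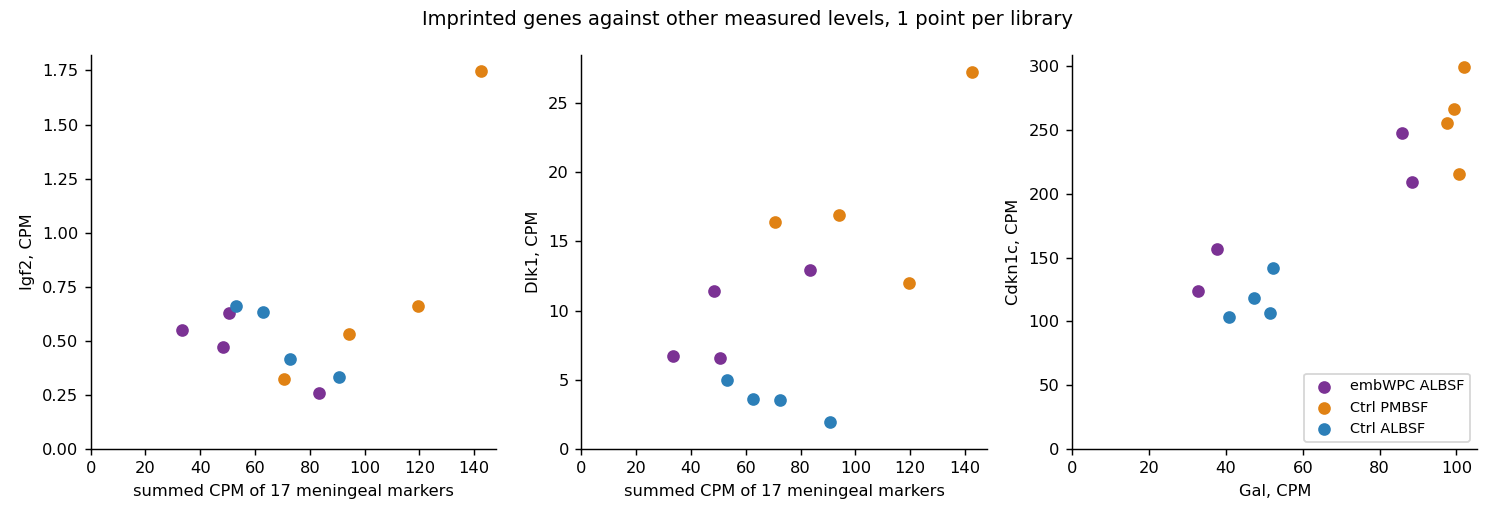
Igf2 and Dlk1 against the summed level of 17 meningeal markers, and Cdkn1c against Gal, all in CPM with axes from 0 and 1 point per library. Ctrl PMBSF 2 stands alone at the upper right for Igf2 (1.75 CPM at a sum of 142.5), and for Cdkn1c embWPC ALBSF 1 and 3 lie near the Ctrl PMBSF libraries while 2 and 4 lie near Ctrl ALBSF.

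The genes whose log2 CPM followed that of Dlk1 most closely over the 12 libraries, among 12650 genes with a mean of at least 1 CPM, were Smyd2 (Pearson r = 0.96), Angpt2 (0.96), Tpd52l1 (0.94), Sinhcaf (0.94), Tars1 (0.93) and Alkbh4 (0.92). Since Dlk1 was chosen for a difference between groups, any gene that differs likewise ranks high here. After the group means were taken off, the same 6 had r between 0.67 and 0.81. They were picked for the highest r over these same libraries, which includes the spread within groups, so this is no separate check. Angpt2, a secreted ligand of the Tie2 receptor, averaged 19.6 CPM in embWPC ALBSF, 30.6 in Ctrl PMBSF and 12.7 in Ctrl ALBSF. Tpd52l1 averaged 34.6 CPM in embWPC ALBSF, 60.0 in Ctrl PMBSF and 19.6 in Ctrl ALBSF. Among those most like Igf2 were Trp53 (0.90), Fstl1 (0.89), Col1a1 (0.87), Prrx1 (0.86) and Mfap4 (0.84), of which Col1a1 is a meningeal marker of the list above. These values describe 12 libraries in 3 groups and carry no p.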

How the data were processed

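Poly-A RNA of 12 libraries was sequenced as 150-base pairs. The authors used, per the submitters' processing notes and the series design, FastQC 0.11.9, STAR 2.7.9a on GRCm39 (mm10 is also listed), SAMtools 1.15 and featureCounts of Subread 2.0.1 with Ensembl release 104. The deposited values are raw counts per gene. Strand, pair and multimapping settings are not given in the sources used here. The authors' own DESeq2 results were not used here.

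Symbols and GRCm39 positions came from GENCODE M39, which matched 54749 of the 55359 genes. All 12 libraries were fitted together in R 4.3.3 with edgeR 4.0.16 (filterByExpr by group, TMM, quasi-likelihood, group as the only term), and Benjamini-Hochberg adjustment ran over 17501 genes, with calls under 0.05. DESeq2 1.42.0, limma 3.58.1 (voom with quality weights) and the settings in the closing section were alternatives. CPM were computed from the counts. The likeness ranking used log2 CPM with a prior count of 2. Intervals are 95% intervals of the fit. The script was tested on simulated data.

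Deviations from group means correlated between control libraries of the same number (0.39, 0.198, 0.325 and 0.396), so the numbers pair Ctrl PMBSF with Ctrl ALBSF. They do not pair embWPC ALBSF with either group (-0.147 to 0.051). The 10 genes and all lists were chosen with earlier results of these data known. The text names the 10 genes, tested genes within 1000 kb of Dlk1, the 6 genes most like Dlk1 and Igf2, called genes of the imprinted, Notch, IGF and CDK inhibitor lists and up to 4 genes per list with the smallest p; 1 gene among those most like Igf2 is not reported here. Begain, Dlk2, Notch1, Cdkn1a, Col3a1 and Gpr151 were named for their place or role, and other markers were named after their values were seen, to list those called or those that differed the other way.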

Additional observations from a re-analysis of the deposited data

Results flagged for a closer look

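Peg10 in Ctrl PMBSF 2 stood apart from the rest of its group, with 0.0921 CPM from 3 counts, while the other 3 libraries had 0.308 to 0.324 CPM. Its gap to the nearest library was 0.93 of the range of the group, above Dixon's 95% critical value for 4 libraries. Chance alone marks about 1 group in 20, and 10 genes in 3 groups were looked at.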

How the results depend on the processing

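Each result was recomputed under 22 other settings (21 for Igf2 and Peg10, which a filter of at least 1 CPM in 4 libraries removes). Cdkn1c was called in Ctrl PMBSF against Ctrl ALBSF under 21 of 22, including every omission of 1 library (1 gene called each time, log2 1.07 to 1.24), and the replicate block changed no call among the 10 genes there. The meningeal covariate gave 0. The log2 difference of Dlk1 between the control territories ran from 1.97 to 2.59. Dlk1 was picked for that difference in these same libraries, so its direction was given in advance and the range is a description only. Without Ctrl PMBSF 2, Igf2 was -0.02. In embWPC ALBSF against Ctrl ALBSF, where 0 of the 10 genes were called, no count filter and DESeq2 gave 2 each (Dlk1 and Cdkn1c), the replicate block over all libraries gave 1 (Dlk1, adjusted p = 0.0378) and leaving out 1 library gave 0 throughout. Against Ctrl PMBSF, no count filter gave 1 (Dlk1, adjusted p = 0.0344). Over all alternatives the adjusted p of Dlk1 in embWPC ALBSF ran from 0.000438 to 0.311 against Ctrl ALBSF and from 0.0344 to 0.784 against Ctrl PMBSF. Both comparisons use the control libraries in which Dlk1 was picked, so neither is independent of that choice.

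Of the 42 other imprinted genes, 0 were called in each comparison. For Ctrl PMBSF against Ctrl ALBSF, no count filter gave 2, DESeq2 1, limma voom 1, the replicate block within the 2 groups 2 and the meningeal covariate 1 (Mest), and leaving out 1 library 0 to 1 (Nap1l5, without Ctrl ALBSF 1 or embWPC ALBSF 2). For embWPC ALBSF against Ctrl ALBSF, no count filter and DESeq2 gave 2 each, and a fit of the 2 groups only, the replicate block within the 2 groups and the meningeal covariate gave 1 each. Leaving out 1 library gave 0 to 1 (Gnas, without Ctrl PMBSF 1). Against Ctrl PMBSF, no count filter and DESeq2 gave 1 each. Counts over all genes also moved, for Ctrl PMBSF against Ctrl ALBSF to 523 by DESeq2, 461 by limma voom, 857 under the replicate block, 180 under the meningeal covariate and 127 to 282 without 1 library. For embWPC ALBSF against Ctrl ALBSF they moved to 121 without a count filter, 5 at 1 CPM or more, 181 by DESeq2, 78 by limma voom, 23 and 1 under the replicate block with all libraries and with the 2 groups, 23 under the covariate and 1 to 37 without 1 library. For embWPC ALBSF against Ctrl PMBSF they moved to 72 without a count filter, 77 by DESeq2, 3 and 0 under the same blocks, 0 under the covariate and 1 to 3 without 1 library. The cause was not tested. Depth limits Igf2 and Peg10, at 3 to 57 counts per library.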
